A study of Mus musculus with 18 samples.

Results

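Periostin (Postn), its relative TGF-beta-induced protein (Tgfbi), fibronectin (Fn1), tenascin C (Tnc), tenascin X (Tnxb) and the tenascin X pseudogene (Tnxa) were followed across 18 RNA-seq libraries of cells sorted from mouse hearts. The 6 genes were chosen by name out of 53342 gene identifiers in the count tables, as the cell-contact proteins of the heart's matrix and the annotated copy of one of them, and all 6 passed the filter on low counts that left 15762 genes for testing, Tnxa through its C3H/HeJ counts. Hearts of 3 inbred strains, C57BL/6, C3H/HeJ and KK/HlJ, gave the Thy1+ cells. A pump implanted in each mouse delivered saline (sham) or isoproterenol (ISO), which stimulates beta-adrenergic receptors, and the ISO groups were sampled on day 14 or on day 21. The labels also write HE or HE- after Thy1+ without spelling it out, and they give no age, sex or transgene. Strain and condition together make 9 groups of 2 libraries. Sham libraries carry no day, so both ISO days were compared with the same 2 sham libraries of their strain. The labels do not say whether the 2 libraries of a group came from separate animals. A p-value here thus sets a difference only against the spread between these libraries, and that spread may be technical.

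Periostin and TGF-beta-induced protein are secreted fasciclin-domain proteins that bind collagen and integrins, and periostin is the usual marker of activated fibroblasts in the injured heart. Fibronectin is the adhesive glycoprotein that cells assemble into fibrils through integrins and on which collagen is deposited. Tenascins are large proteins that modulate adhesion: tenascin C is scarce in the healthy adult heart and appears at sites of injury, while tenascin X is made steadily by fibroblasts of loose connective tissue and associates with collagen fibrils.

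Totals ran from 7230741 to 26280685 counts per library. Levels are given as CPM, that is, counts brought to a common depth with the effective library sizes of edgeR. Marker sums use CPM scaled by total counts alone. The 10 fibroblast markers, among them Thy1, Pdgfra, Tcf21 and Dcn, summed to between 77080.5 and 120266 CPM in each library. Most of that sum was Gsn (gelsolin, an actin-severing protein), with a median level of 70125 CPM. Pericyte and smooth muscle markers were the next largest set, at 1080.4 to 5699 CPM. Endothelial markers summed to at most 1031 CPM, valve and tendon markers to at most 655, epicardial and mesothelial markers to at most 542, cardiomyocyte markers to at most 386, Schwann and glia markers to at most 188, macrophage and monocyte markers to at most 196 CPM and lymphocyte markers to at most 6.09 CPM. In bulk libraries, fewer cells of a type and less RNA per cell cannot be told apart. In 4 libraries the median correlation with the others over 10055 genes was lowest, at 0.765 to 0.817. These were replicate 1 of C3H/HeJ sham, KK/HlJ sham, KK/HlJ ISO day 14 and KK/HlJ ISO day 21, and the other 14 libraries had medians of 0.851 to 0.916. Leaving them out leaves 1 library in C3H/HeJ sham and in each KK/HlJ group, and the ISO results are also given that way.

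Per kilobase of transcript, which allows levels of different genes to be compared, Postn had the highest median level over the 18 libraries, 360.2 CPM per kb. Tnxb followed at 149, Tgfbi at 136 and Fn1 at 126 CPM per kb, while Tnc stood at 4.28 and Tnxa at 0.0642 CPM per kb. By CPM, Tnxb lay above 99.6% of the tested genes, Postn above 99.4%, Fn1 above 99.3%, Tgfbi above 97.6% and Tnc above 67.7%. The highest library exceeded the lowest 10-fold for Postn, 6.75-fold for Fn1 and 58.8-fold for Tnc. The same ratio was 2.64 for Tgfbi and 2.6 for Tnxb, so these genes varied least across strains and conditions. The sequences of Postn and Tgfbi are unique in the annotation at the read length used: none of the 50-base windows of either transcript occurs in another gene. Of the windows of Fn1, 2.42% also occur in Apol7d, and of those of Tnc, 1.15% also occur in 8030451A03Rik.

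**Figure D1:**
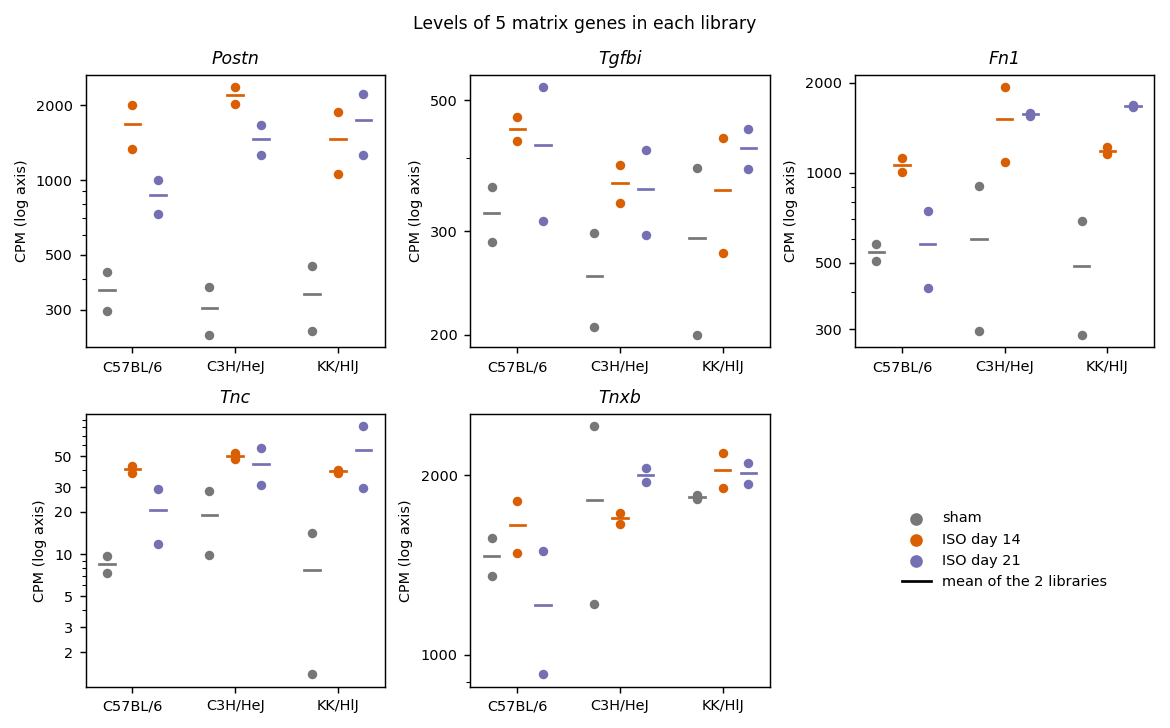
Level of Postn, Tgfbi, Fn1, Tnc and Tnxb in each of the 18 libraries, as CPM on a log axis, by strain (x axis) and condition (colour). Points are libraries and lines are means of 2 libraries. Postn lies between 237 and 448 CPM in the 6 sham libraries and at 732 CPM or above in the 12 ISO libraries.

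Postn (chr3:54361109-54391037, plus strand, mm10) was higher after ISO in every strain and on both days. In C57BL/6 it stood at 424 and 297 CPM in sham, 2013 and 1339 CPM on day 14 and 1003 and 732 CPM on day 21. In C3H/HeJ the sham libraries had 372 and 237 CPM, those of day 14 had 2017 and 2373 CPM and those of day 21 had 1256 and 1659 CPM. In KK/HlJ the levels were 246 and 448 CPM in sham, 1053 and 1881 CPM on day 14 and 1264 and 2232 CPM on day 21. The lowest ISO library on either day thus lay above the highest sham library of any strain. At day 14, 0.19% of the tested genes had all 6 ISO libraries above all 6 sham libraries, and at day 21 0.0634% had. Averaged over the 3 strains, Postn rose 5.21-fold at day 14 (log2 fold change 2.38, SE 0.233, adjusted p = 1.22e-05 by edgeR's quasi-likelihood test with Benjamini-Hochberg adjustment). At day 21 it rose 3.87-fold (log2 1.95, SE 0.23, edgeR adjusted p = 0.00032). Postn was the only one of the 6 genes called on either day, at an adjusted p under 0.05, against 0.0381% of all genes tested at day 14 and 0.0444% at day 21. Without the 4 libraries that correlated least with the others, the log2 fold change was 2.5 at day 14 and 2.07 at day 21, and both were called.

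Within single strains, each resting on 2 libraries against 2, Postn passed the test in 2 of 6 comparisons. It rose 7.21-fold in C3H/HeJ at day 14 (log2 2.85, SE 0.412, edgeR adjusted p = 0.00915), where 0.0127% of genes were called. In KK/HlJ it rose 5.04-fold at day 21 (log2 2.33, SE 0.404, edgeR adjusted p = 0.0471), where 0.019% of genes were called. The C3H/HeJ call was lost without sham replicate 1 (edgeR adjusted p = 0.101) or without ISO day 14 replicate 2 (edgeR adjusted p = 0.126), and the KK/HlJ call was lost without sham replicate 1 (0.27), without ISO day 21 replicate 1 (0.0645), and with RLE scaling (0.0537), the replicate block (0.0945) or limma voom (0.322). The other log2 fold changes of Postn were 2.22 and 1.27 in C57BL/6 at days 14 and 21, with edgeR adjusted p-values of 0.234 and 1, 2.26 in C3H/HeJ at day 21 (0.186) and 2.08 in KK/HlJ at day 14 (0.249). No gene at all was called in either C57BL/6 comparison, in C3H/HeJ at day 21 or in KK/HlJ at day 14 (0% of tested genes), while between 173 and 911 genes had an unadjusted p under 0.05 in each. In the same comparisons DESeq2 called 7, 7, 33 and 97 genes and limma voom 1, 0, 0 and 0. Postn was among the DESeq2 calls in 3 of the 4 and was not called in C57BL/6 at day 21 (DESeq2 adjusted p = 0.471).

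The upstream sequence of Postn is shown because this gene carried the ISO difference. The 250 bases before its start (chr3:54360857-54361106, plus strand, RefSeq annotation on GRCm38.p6) hold TATAAA, in capitals, 26 bases before the start. A start further upstream in the same annotation has no such match in its window. The sequence of Tnc, the member with the next largest mean difference, holds TATAAA 126 bases before its start (chr4:64047016-64047265, minus strand).
Postn: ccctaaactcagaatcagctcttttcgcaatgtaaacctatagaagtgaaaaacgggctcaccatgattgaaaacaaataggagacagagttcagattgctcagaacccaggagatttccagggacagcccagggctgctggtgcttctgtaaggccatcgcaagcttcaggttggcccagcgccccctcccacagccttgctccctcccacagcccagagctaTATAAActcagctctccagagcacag
Tnc: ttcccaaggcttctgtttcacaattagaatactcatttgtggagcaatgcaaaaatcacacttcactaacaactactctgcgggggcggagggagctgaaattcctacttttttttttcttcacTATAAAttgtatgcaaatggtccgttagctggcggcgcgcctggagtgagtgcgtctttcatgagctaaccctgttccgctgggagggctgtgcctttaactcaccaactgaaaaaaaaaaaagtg
Both strands of each window were searched for TATAAA, for TGANTCA (the AP-1 site), GGAATG (TEAD), CAGACA (SMAD), CANNTG (E-box) and GGGCGG (GC box). Of 32851 promoters of this length, 12.4% hold TATAAA, 6.75% TGANTCA, 12.6% GGAATG, 17.1% CAGACA, 66.2% CANNTG and 32.7% GGGCGG. The Postn window shown holds only the TATAAA match. That of Tnc also holds CANNTG at 3 places and GGGCGG at 1. Another Tnc start in the same annotation has a window (chr4:64046937-64047186) that overlaps the one shown, with TATAAA 205 and CAGACA, on the opposite strand, 71 bases before that start, CANNTG at 2 places and GGGCGG at 1. The window of Tgfbi holds only GGGCGG, and that of Tnxb holds TGANTCA 55 bases before the start and 1 CANNTG. A match is a string of letters and was not tested as a binding site.

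Fn1 (chr1:71585520-71653200, minus strand) had higher levels after ISO in most libraries, but its spread among sham libraries was wide and it did not pass the test. In C57BL/6 the sham libraries had 579 and 509 CPM, those of day 14 had 1005 and 1124 CPM and those of day 21 had 412 and 744 CPM. In C3H/HeJ the levels were 295 and 907 CPM in sham, 1088 and 1939 CPM on day 14 and 1551 and 1587 CPM on day 21. In KK/HlJ they were 287 and 691 CPM in sham, 1219 and 1154 CPM on day 14 and 1656 and 1683 CPM on day 21. All 6 libraries of day 14 lay above all 6 sham libraries, as was the case for 0.19% of tested genes. At day 21 the C3H/HeJ and KK/HlJ libraries did so too, whereas in C57BL/6 1 library lay below both shams and 1 above. The share of all genes with this day 21 pattern was not counted. The mean over strains was 2.29-fold at day 14 (log2 1.19, SE 0.265, edgeR adjusted p = 0.144) and 2.12-fold at day 21 (log2 1.08, SE 0.265, edgeR adjusted p = 0.377). Without the 4 libraries that correlated least with the others, these log2 values were 0.82 and 0.72, with edgeR adjusted p-values of 0.109 and 0.178.

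The call on Fn1 depended on the tool, the filter on low counts, the replicate block and single sham libraries. DESeq2 gave adjusted p-values of 0.00209 at day 14 and 0.0112 at day 21 for nearly the same log2 values, 1.20 and 1.08. Without the filter the edgeR adjusted p was 4.4e-06 and 8.62e-05, and with the replicate block it was 0.043 at day 14 and 0.104 at day 21. Without C3H/HeJ sham replicate 2, the sham library with the highest Fn1, the edgeR adjusted p was 0.00519 at day 14 and 0.00903 at day 21, and without KK/HlJ sham replicate 2 it was 0.0234 and 0.0418. In single strains the log2 fold changes at days 14 and 21 were 0.97 and 0.09 for C57BL/6, 1.33 and 1.38 for C3H/HeJ, and 1.28 and 1.77 for KK/HlJ, and none passed the edgeR test.

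Tnc (chr4:63959785-64047015, minus strand) was the scarcest of the protein-coding members and had the second largest mean difference with ISO. In C57BL/6 it had 7.3 and 9.75 CPM in sham, 38 and 42.5 CPM on day 14 and 29.2 and 11.8 CPM on day 21. In C3H/HeJ it had 9.82 and 28.1 CPM in sham, 47.4 and 52.5 CPM on day 14 and 31.2 and 56.7 CPM on day 21. In KK/HlJ it had 14.1 and 1.39 CPM in sham, the latter from 15 counts, 39.9 and 37.9 CPM at day 14 and 29.7 and 81.5 CPM at day 21. Both ISO libraries lay above both sham libraries in each strain and on each day, as did those of Postn, and for 0.692% of tested genes at day 14 and 0.285% at day 21. Across strains the 6 libraries of day 14 lay above all sham libraries, as was the case for 0.19% of tested genes. At day 21 a C57BL/6 library at 11.8 CPM lay within the sham range. The mean over strains was 3.96-fold at day 14 (log2 1.99, SE 0.454, edgeR adjusted p = 0.16) and 3.41-fold at day 21 (log2 1.77, SE 0.451, edgeR adjusted p = 0.443). Neither passed.

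Here, too, the call turned on the tool, the filter and a sham library. DESeq2 gave adjusted p-values of 0.00713 and 0.0337 at days 14 and 21 with log2 values of 1.99 and 1.77. Without the filter on low counts the edgeR adjusted p was 0.000245 and 0.00349. Without KK/HlJ sham replicate 1, which leaves the library at 1.39 CPM to stand for that group, the log2 values were 2.81 and 2.60 and the edgeR adjusted p-values 0.00495 and 0.00888. Without the 4 libraries that correlated least with the others, of which it is 1, they were 2.61 and 2.60, with edgeR adjusted p-values of 0.00207 and 0.00134. In single strains the log2 fold changes at days 14 and 21 were 2.24 and 1.27 for C57BL/6, 1.40 and 1.21 for C3H/HeJ, and 2.32 and 2.84 for KK/HlJ, with SEs of 0.767 to 0.814, and none passed the edgeR test.

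Tenascin C and periostin are also made by cells of valves and tendons. The 10 valve and tendon markers summed to 183 to 381 CPM in sham (median 246), 282 to 655 CPM at day 14 (median 418) and 217 to 572 CPM at day 21 (median 363). Of the 10, none was called in the mean over strains on either day by edgeR, DESeq2 or limma voom, 1 had an unadjusted edgeR p under 0.05 on each day, 9 had a positive log2 fold change at day 14 and 7 at day 21. Tnmd and Mkx, 2 of the tendon genes, were at 3 counts or fewer in 9 and 14 of 18 libraries and had a median of 0.0828 and 0 CPM. Scx, also in the set, was at 3 counts or fewer in 1 library and had a median of 2.57 CPM. Its log2 fold changes at days 14 and 21 were 2.31 and 1.57 (edgeR adjusted p = 0.898 and 0.996). Thbs4, a thrombospondin of tendon and muscle matrix, had both ISO libraries above both shams in all 3 strains on both days. Of all tested genes, 0.692% did so at day 14 and 0.285% at day 21. The log2 fold change of Thbs4 was 2.33 at day 14 (edgeR adjusted p = 0.642). The endothelial marker sums had medians of 355 CPM in sham, 321 at day 14 and 368 at day 21. Of the 10, 4 had a positive log2 fold change at day 14 and 9 at day 21. An unadjusted edgeR p under 0.05 was found for 2 and 4 of them, against 5.51% and 5.09% of all tested genes. None was called by edgeR, DESeq2 or limma voom. The fibroblast marker sums had medians of 107803 CPM in sham, 95440.1 at day 14 and 103152 at day 21, in ranges that overlap. Of those 10 markers, 6 had a positive log2 fold change at day 14 and 7 at day 21, and none was called. Thy1, the marker used for sorting, lay below both shams of its strain in 3 of 6 libraries at day 14 and 5 of 6 at day 21. Some other sets also had lower medians after ISO, in ranges that overlap those of sham. The medians for sham, day 14 and day 21 were 2386, 1813 and 1765 CPM for pericyte and smooth muscle markers, 144, 92.6 and 89.1 CPM for Schwann and glia markers, and 348, 246 and 254 CPM for epicardial and mesothelial markers. Des (desmin, an intermediate filament of muscle cells and pericytes) was below both shams of its strain in 6 of 6 libraries at day 21 (log2 fold change -0.99, edgeR adjusted p = 0.604). So was Gfra3, a marker of the Schwann and glia set. The share of all genes below both shams was not counted. No marker of these 3 sets was called on either day by edgeR, DESeq2 or limma voom, and between 0 and 3 of each set had an unadjusted edgeR p under 0.05.

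Macrophage and monocyte markers summed to 5.43 to 19 CPM in sham, 3.8 to 124 CPM at day 14 and 9.62 to 196 CPM at day 21, with Itgam at 3 counts or fewer in all 18 libraries. The high ends are 1 library each, replicate 1 of KK/HlJ day 14 and replicate 1 of C3H/HeJ day 21, and the next highest were 39.5 and 34.9 CPM. In the mean over strains, 7 of the 8 tested were positive at day 14 (median log2 fold change 1.38) and 8 at day 21 (2.77). On these days 1 and 2 had an unadjusted edgeR p under 0.05, and edgeR and limma voom called none. DESeq2 called 1, C1qa at day 14, a complement component of macrophages. Its edgeR log2 fold change, the only negative one of the 8 that day, was -1.79 (SE 1.55, adjusted p = 1). For C1qa the group means of sham and day 14 were 1.17 and 0 CPM for C57BL/6 mice, 3.05 and 0.745 CPM for KK/HlJ and 0.4 and 5.98 CPM for C3H/HeJ. The part of any of these cell types in the Postn and Tnc differences was not tested.

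**Figure D2:**
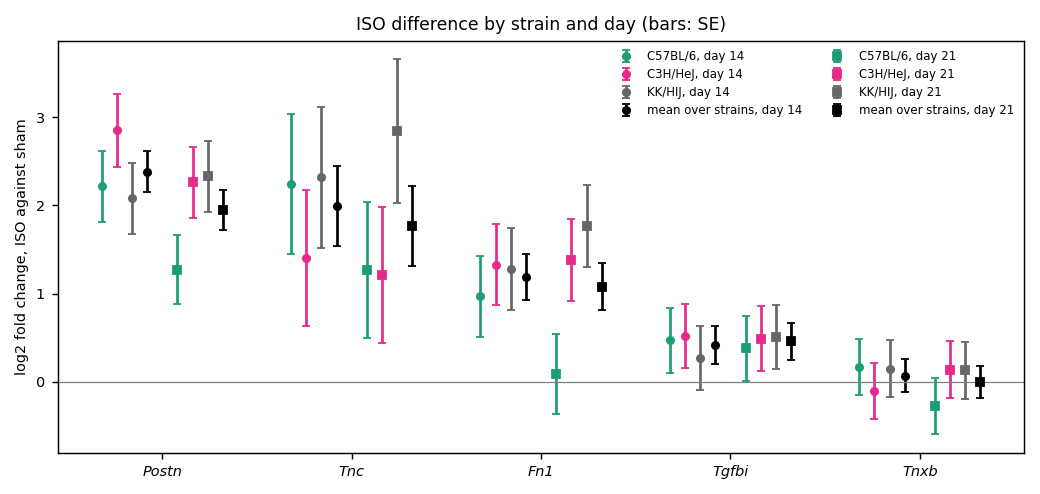
Log2 fold change of ISO against sham (y axis) for 5 genes (x axis) by strain (colour) and day (circle, day 14; square, day 21), with black for the mean over strains and bars for the SE. The means of Postn stand at 2.38 and 1.95, those of Tnc at 1.99 and 1.77 with wider bars, and those of Tnxb at 0.07 and 0.00.

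Tgfbi (chr13:56609523-56639562, plus strand), the fasciclin protein closest to periostin, differed little. In C57BL/6 it had 288 and 357 CPM in sham, 469 and 427 CPM on day 14 and 312 and 527 CPM on day 21. In C3H/HeJ the levels were 206 and 298 CPM in sham, 389 and 335 CPM on day 14 and 412 and 295 CPM on day 21. In KK/HlJ they were 199.9 and 384 CPM in sham, 275 and 431 CPM on day 14 and 447 and 382 CPM on day 21. At day 14 the ISO and sham libraries did not overlap in C57BL/6 and C3H/HeJ but did in KK/HlJ, and at day 21 they overlapped in all 3 strains. How many of all tested genes separate in this way within a single strain was not counted. The mean over strains was 1.34-fold at day 14 (log2 0.42, SE 0.211, edgeR adjusted p = 0.898) and 1.37-fold at day 21 (log2 0.46, edgeR adjusted p = 0.953). Over the 7 alternative settings the log2 value ran from 0.31 to 0.44 at day 14 and from 0.21 to 0.51 at day 21, with no call.

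Tnxb (chr17:34670535-34719815, plus strand) showed no ISO difference beyond the spread between libraries. In C57BL/6 it had 1568 and 1355 CPM in sham, 1483 and 1811 CPM on day 14 and 927 and 1494 CPM on day 21. In C3H/HeJ the sham libraries, at 1214 and 2414 CPM, enclosed the ISO libraries at 1655 and 1729 CPM at day 14 and at 2052 and 1944 CPM at day 21. In KK/HlJ it had 1823 and 1855 CPM in sham, 2174 and 1905 CPM on day 14 and 1933 and 2094 CPM on day 21, with the ISO libraries slightly above the shams. The mean log2 fold change over strains was 0.07 at day 14 and 0.00 at day 21, with an SE of 0.185 on both days and an edgeR adjusted p of 1. With an offset for transcript length the values were -0.27 and -0.25, and without the 4 libraries that correlated least they were -0.10 and -0.12, so their sign depends on the setting.

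Day 21 was compared with day 14 directly, as the mean over strains. The edgeR test called no gene in the table (0% of 15762), while 293 had an unadjusted p under 0.05, and DESeq2 called 3 genes and limma voom 0. Postn had the lowest log2 difference of the 5 coding members, -0.43 (SE 0.222, unadjusted p = 0.0662, adjusted p = 1 by edgeR). In C57BL/6 both libraries of day 21 lay below both of day 14 for Postn, and so did those of C3H/HeJ, whereas in KK/HlJ they overlapped. The share of all genes with such a separation was not counted, so this is a description only. The differences were -0.21 for Tnc, -0.11 for Fn1, -0.07 for Tnxb and 0.03 for Tgfbi. When both ISO days were averaged against sham, a comparison added after the data were seen, the log2 fold changes were 2.17 for Postn, 1.88 for Tnc, 1.14 for Fn1, 0.44 for Tgfbi and 0.04 for Tnxb. Only Postn was called (edgeR adjusted p = 1.49e-05, against 0.0571% of genes), with adjusted p-values of 0.0845 for Fn1 and 0.109 for Tnc.

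Between strains, averaged over sham and both ISO days, none of the 5 coding members was called by edgeR, DESeq2 or limma voom. Fn1 between C3H/HeJ and C57BL/6 and Tnxb between KK/HlJ and C57BL/6 had unadjusted edgeR p-values of 0.0156 and 0.0215, and the others were above 0.05. The edgeR test called 0.647% of genes between C3H/HeJ and C57BL/6, 0.273% between KK/HlJ and C57BL/6 and 0.406% between KK/HlJ and C3H/HeJ. Fn1 was 1.62-fold higher by estimate in C3H/HeJ than in C57BL/6 (log2 0.70, SE 0.263, edgeR adjusted p = 0.453), and the log2 value without the 4 libraries that correlated least was 0.89 (edgeR adjusted p = 0.0122). Tnc was at 0.86 (SE 0.44, edgeR adjusted p = 0.651) in the same comparison, and at 1.03 (0.0475) without those libraries. Tnxb stood at log2 0.36 in C3H/HeJ and 0.46 in KK/HlJ against C57BL/6, with edgeR adjusted p-values of 0.648 and 0.754. Postn differed between strains by at most 0.30 in log2 in the fit of all libraries, and without the 4 libraries KK/HlJ stood 0.60 above C57BL/6 (edgeR adjusted p = 0.225) and 0.44 above C3H/HeJ (0.479).

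The ISO response itself, averaged over both days, was compared between strains as an interaction. The edgeR test called no gene in the table in any of the 3 pairs (0% of tested genes), while 562 to 806 genes had an unadjusted p under 0.05. DESeq2 called 4 to 30 genes and limma voom none. For Fn1 the response in KK/HlJ exceeded that in C57BL/6 by 1.0 in log2 (SE 0.557, edgeR adjusted p = 0.933), and that in C3H/HeJ exceeded it by 0.83 (SE 0.556, adjusted p = 1). For Postn the C3H/HeJ response exceeded that of C57BL/6 by 0.81 (SE 0.472, edgeR adjusted p = 1). For Tnc the response in KK/HlJ exceeded that in C3H/HeJ by 1.28 (SE 0.937, edgeR adjusted p = 1). Without the 4 libraries that correlated least with the others this became 4.56 (edgeR adjusted p = 0.0264), where the KK/HlJ sham group is the single library with 15 counts of Tnc. The median interaction over all genes was 0.18 for both comparisons with C57BL/6.

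**Figure D3:**
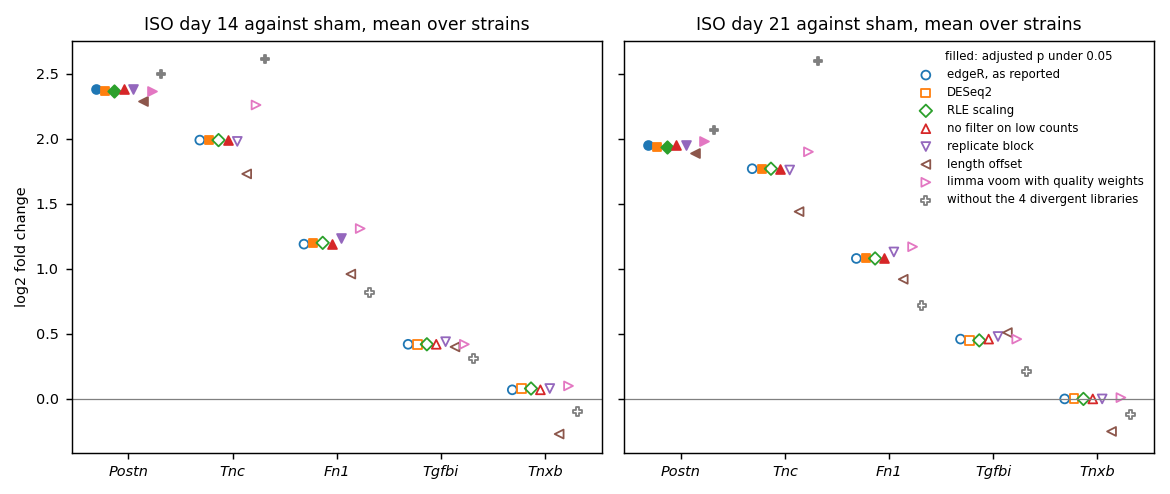
Log2 fold change of ISO against sham, mean over strains (y axis), for 5 genes (x axis) at day 14 (left) and day 21 (right), under edgeR as reported and 7 other settings (symbols). Filled symbols have an adjusted p under 0.05. Postn is filled under every setting on both days, Tgfbi and Tnxb under none, and Fn1 and Tnc under some.

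Tnxa (chr17:34771395-34801623, plus strand) is annotated as an unprocessed pseudogene, a partial copy of Tnxb in the complement region of the same chromosome. That its reads lie mainly in C3H/HeJ was known when it was chosen, so its levels are given as a description. In C3H/HeJ it had 745 and 838 counts in sham, 1991 and 309 on day 14 and 433 and 552 on day 21. These are 58.5 and 47.9 CPM, 81 and 29.6 CPM, and 39.5 and 25.6 CPM, a mean of 47 ± 20.5 CPM (SD, n = 6). In C57BL/6 no library had more than 2 counts. The C3H/HeJ mean was at least 261-fold higher than the C57BL/6 floor of 3 counts per library, 0.18 CPM on average.

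In KK/HlJ Tnxa had 1 count in each sham library, 50 and 14 counts at day 14, and 1 and 2 at day 21. The library with 50 counts, 6.5 CPM, was replicate 1 of day 14, the library that correlated least with the others of all 18. No KK/HlJ library overlapped the C3H/HeJ range. Within C3H/HeJ the ISO libraries of day 14 enclosed the shams and those of day 21 lay below them, with log2 fold changes of 0.06 (SE 0.945) and -0.71 (SE 0.951) and edgeR adjusted p-values of 1 and 0.976.

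Set against its parent gene, Tnxa made up a small share of the reads. Of all Tnxa and Tnxb reads in C3H/HeJ, it took 4.6% (exact 95% interval 4.28 to 4.93) and 1.94% (1.82 to 2.08) in sham. It took 4.67% (4.47 to 4.87) and 1.69% (1.5 to 1.88) at day 14, and 1.89% (1.71 to 2.07) and 1.3% (1.19 to 1.41) at day 21. The 2 libraries of each group thus differed by more than counting error, and the shares near 4.6% came from 1 sham and 1 day 14 library. In C57BL/6 the share was at most 0.00927%, and in KK/HlJ it was 0.298% (0.221 to 0.393) in replicate 1 of day 14 and at most 0.0304% elsewhere. Intervals cover counting error only.

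How far reads of the pair can be told apart is shown by their sequences. Of the 2926 windows of 50 bases in the Tnxa transcript, 25.9% occur unchanged in Tnxb, 54.5% with at most 2 mismatches and 70.6% with at most 5. Of the 12160 windows of Tnxb, 6.63% occur unchanged in Tnxa. The first pair below is a coding stretch of Tnxb (bases 6912 to 7011 of its transcript) and its match in Tnxa (bases 221 to 320), with the 8 differing bases in capitals. The last line is a stretch of 50 bases that both hold (Tnxa bases 1352 to 1401, Tnxb bases 10125 to 10174), where a read of this length fits both genes.
Tnxa: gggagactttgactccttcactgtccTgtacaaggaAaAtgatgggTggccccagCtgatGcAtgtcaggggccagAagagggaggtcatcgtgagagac
Tnxb: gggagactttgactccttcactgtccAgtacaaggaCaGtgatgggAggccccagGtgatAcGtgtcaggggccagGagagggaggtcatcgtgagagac
Tnxa and Tnxb: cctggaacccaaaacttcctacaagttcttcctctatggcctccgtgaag
Reads of all strains were mapped to mm10, which derives from C57BL/6, and the sources used here do not give how the counter treated reads that fit 2 genes. The split between Tnxa and Tnxb is therefore uncertain, and so is whether the C3H/HeJ reads come from Tnxa itself. In the mapping of C57BL/6 reads, where genome and sample match, at most 2 counts per library reached Tnxa.

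**Figure D4:**
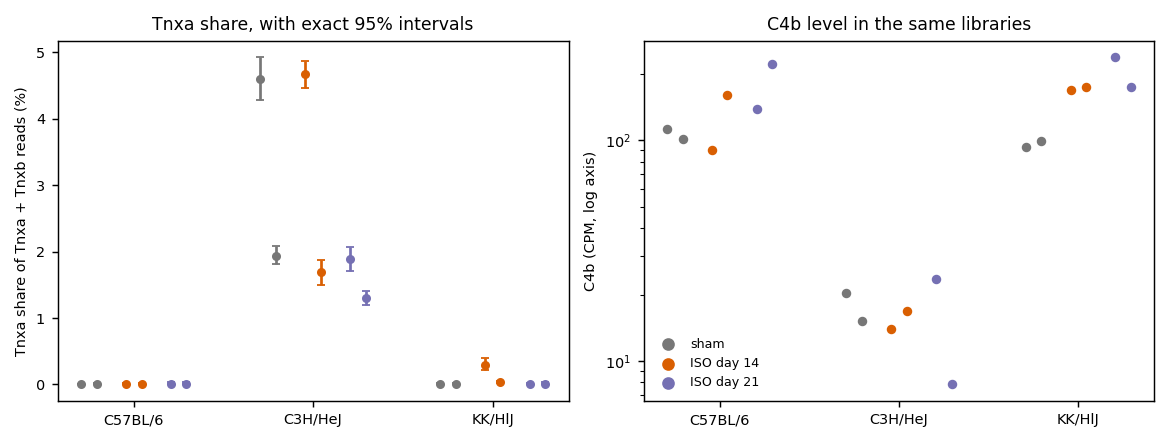
Left, share of Tnxa in all reads of Tnxa and Tnxb (percent, y axis) in each library by strain (x axis) and condition (colour), with exact 95% intervals. Right, C4b in the same libraries, as CPM on a log axis. The 6 C3H/HeJ libraries have Tnxa shares of 1.3% to 4.67% and C4b at 7.83 to 23.5 CPM, below every library of the other strains.

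Around the pair, 20 genes were listed and 18 were tested. The edgeR test called 1 of the 18 between strains. Of all tested genes it called 0.647% between C3H/HeJ and C57BL/6, 0.273% between KK/HlJ and C57BL/6 and 0.406% between KK/HlJ and C3H/HeJ. C4b (chr17:34728380-34743882, minus strand), the complement component gene that lies between Tnxb and Tnxa, had 169 to 345 counts in the C3H/HeJ libraries, 1442 to 3209 in C57BL/6 and 1073 to 4780 in KK/HlJ. It was lower in C3H/HeJ than in C57BL/6 (log2 fold change -3.05, SE 0.268, edgeR adjusted p = 2.06e-07), and KK/HlJ exceeded C3H/HeJ by 3.21 (SE 0.27, edgeR adjusted p = 1.39e-07). The C3H/HeJ range of C4b did not overlap that of either other strain, and the share of all genes with such a separation was not counted. Its near-identical copy C4a had at most 42 counts in any library, so the split of reads between the C4 genes is uncertain as well. None of the 18 genes was called for ISO in the mean over strains on either day by edgeR, DESeq2 or limma voom, and 1 had an unadjusted edgeR p under 0.05 on each day.

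The wider pathway was described by lists of genes that act with the 6. Limma voom called no gene of these lists on either day in the mean over strains, and neither did edgeR, so the counts at an unadjusted edgeR p under 0.05 and those of DESeq2 are also given. Over all tested genes, 5.51% had such a p at day 14 and 5.09% at day 21, and DESeq2 called 74 and 49 genes. Genes named below for a DESeq2 call were chosen after their values were seen. Of 21 receptors for these proteins, integrins, syndecans and others, 2 had such a p on each day and DESeq2 called 0 at day 14 and 1 at day 21, the integrin gene Itga7 (log2 fold change -1.07, edgeR adjusted p = 0.254). Of the 21, 13 had positive log2 fold changes at day 14 and 15 at day 21, and the medians were 0.12 and 0.15. Itgb6, a partner of alpha V, is among the 15 but had counts in day 21 libraries alone. Over all tested genes the medians were 0.02 and 0.03. The most abundant receptors were Anxa2, an annexin that binds tenascin C, with a median of 1516 CPM over the libraries, and Itgb5, an integrin subunit that pairs with alpha V to bind periostin, at 909 CPM. Their log2 fold changes at days 14 and 21 were 0.07 and -0.15 for Anxa2 and -0.06 and -0.02 for Itgb5.

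Of 30 upstream regulators, ligands, receptors and transcription factors of the TGF-beta, cytokine and mechanical pathways, 3 and 4 had an unadjusted p under 0.05 at days 14 and 21, DESeq2 called 0 on both days, 22 and 19 were positive at days 14 and 21, and the medians were 0.32 and 0.24. Il6st, the shared receptor subunit of the interleukin 6 family, had a median level of 685 CPM and log2 fold changes of 0.13 and 0.32. Pdgfra, the platelet-derived growth factor receptor of fibroblasts, had 574 CPM and 0.10 and 0.33. Of 15 focal adhesion genes, 0 had an unadjusted p under 0.05 and DESeq2 called 0 on both days, 8 and 9 were positive and the medians were 0.04 and 0.07. Tln1 (talin, which links integrins to actin) and Ilk (integrin-linked kinase) had median levels of 438 and 380.1 CPM and log2 fold changes at day 14 of -0.14 and -0.28.

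The matrix partners, collagens, proteoglycans and matricellular proteins, gave the highest medians of these lists. Of 29, 28 were tested. At days 14 and 21, 14 and 9 had an unadjusted p under 0.05, DESeq2 called 6 and 3, 26 were positive at day 14 and 23 at day 21, and the medians were 0.54 and 0.41. Col12a1, a fibril-associated collagen, and Comp, a thrombospondin-family protein, were among the DESeq2 calls on both days, with log2 fold changes of 1.39 and 1.53 for Col12a1 and 1.15 and 1.14 for Comp and edgeR adjusted p-values of 0.144 to 0.254. Dcn (decorin, a collagen-binding proteoglycan) had a median level of 12055 CPM and log2 fold changes of -0.01 and 0.03. Col3a1, a fibrillar collagen, had 8489 CPM and 1.13 and 0.67, with edgeR adjusted p-values of 0.371 and 0.953. Of the 4 other tenascins and fasciclin proteins, Tnn and Stab1 were tested, and neither had an unadjusted p under 0.05 or a DESeq2 call. Stab1, a scavenger receptor of macrophages and endothelium, had a median of 3.9 CPM, and Tnn and Tnr were near 0 in most libraries, with medians of 0.0191 and 0 CPM. Since all these lists were compared with the same sham libraries, their values are not independent of those of the 6 genes.

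For each coding member, the genes most like it were found by Pearson's r of log2(CPM + 1) over the 18 libraries among 9787 genes, as a description of libraries that share strains, conditions and depth. Postn was most like Itgbl1 (r = 0.931), Dkk3 (0.885) and Sulf1 (0.869). Fn1 was most like Fndc1 (0.936), the collagen gene Col14a1 (0.915) and Ltbp2 (0.906), a latent TGF-beta binding protein. Tgfbi was most like Emilin2 (0.906), Brip1os (0.828) and Islr2 (0.827). Tnc had lower values throughout, with Prg4 (0.837), Tatdn2 (0.819) and Nfatc1 (0.794), and Tnxb was most like Ptprs (0.903), Pcnx3 (0.902) and Atp9b (0.886). Among the members themselves, r was 0.76 between Postn and Fn1, 0.73 between Postn and Tnc and 0.644 between Fn1 and Tnc. Between Postn and Tgfbi it was 0.537, and between Tnxb and Fn1 it was 0.618, while Tnxb and Postn gave 0.115.

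Ordered by group mean, Postn ran from 304 ± 96 CPM in C3H/HeJ sham through 347 ± 143 in KK/HlJ sham and 361 ± 89.9 in C57BL/6 sham to 868 ± 191 in C57BL/6 ISO day 21 (SD, n = 2 per group). Above these came C3H/HeJ day 21 at 1458 ± 285, KK/HlJ day 14 at 1467 ± 585, C57BL/6 day 14 at 1676 ± 477, KK/HlJ day 21 at 1748 ± 684 and C3H/HeJ day 14 at 2195 ± 252 CPM. The 3 sham groups overlapped with each other, and so did each neighbouring pair among the 5 highest groups, while C57BL/6 day 21 stood apart from its neighbours on both sides. For Tnc the lowest groups were KK/HlJ sham at 7.74 ± 8.99 and C57BL/6 sham at 8.52 ± 1.73 CPM and the highest KK/HlJ day 21 at 55.6 ± 36.6 CPM, with overlap between all neighbours from KK/HlJ day 14 upward. For Fn1 the order began with KK/HlJ sham at 489 ± 285 CPM and C57BL/6 sham at 544 ± 48.9 CPM. C57BL/6 day 21, at 578 ± 234 CPM, lay between these and C3H/HeJ sham at 601 ± 433 CPM. Neighbours among these 4 overlapped, while C3H/HeJ sham did not overlap with C57BL/6 day 14, the next group above it. KK/HlJ day 21 was highest at 1669.6 ± 19.5 CPM. For Tgfbi every neighbouring pair of groups overlapped, from C3H/HeJ sham at 252 ± 64.6 to C57BL/6 day 14 at 448 ± 29.9 CPM. The Tnxb order ran from C57BL/6 day 21 at 1210.1 ± 401 to KK/HlJ day 14 at 2039.5 ± 191 CPM, with the 3 C57BL/6 groups lowest. Every neighbouring pair overlapped except KK/HlJ sham and C3H/HeJ day 21, so the C57BL/6 groups were not separated from the next group above.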

How the data were processed

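Per the labels' protocols, RNA of the sorted cells was made into stranded mRNA libraries and read from 1 end for 50 bases. Per the submitters' processing notes, the authors used FastQC, STAR 2.5.3a and edgeR with mm10. The sources used here give neither the annotation release nor the counter with its strand setting, so antisense overlaps cannot be told apart. The deposited values are raw counts for each Ensembl gene, not normalized by the authors. Of 53342 identifiers, 53237 matched GENCODE M21, which gave symbols, positions and transcript lengths, and the other 105 held 0.00159% of reads. Coordinates and promoters of 4 members came from GENCODE and RefSeq on GRCm38.

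The counts of all 18 libraries entered 1 fit of edgeR's quasi-likelihood test (edgeR 4.0.16, R 4.3.3, TMM scaling, default filtering, robust fit), with a term for each of 9 groups and 9 residual degrees of freedom. P-values were adjusted by Benjamini-Hochberg over 15762 genes, and calls need an adjusted p under 0.05. The SE is the absolute log2 fold change over the square root of F. Replicate numbers were not used to pair the libraries in this fit. Between the 2 libraries of a group, chi-square per degree of freedom was 59 to 158, above counting noise. All 6 members were named whatever they showed, and Tnxa, chosen for its strain pattern, entered no count of calls between strains or across settings. Of each list the 2 genes with the highest mean level and any called were to be named, and other list genes were chosen after their values were seen. For likeness, the 3 genes with the highest r were taken among those with a mean of 5 CPM or more. The members and lists were chosen with earlier results of these data known. A floor is 3 counts per library. Alternatives were RLE scaling, DESeq2 1.42.0, a replicate block, fitting without the filter on low counts, a length offset, limma 3.58.1 voom with quality weights, leaving out the 4 libraries that correlated least with the others, and leaving out each library in turn. The test script was checked on simulated data.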

Additional observations from a re-analysis of the deposited data

How the results depend on the processing

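Postn was called in the mean over strains on both days under all 7 alternative settings, with log2 values of 2.29 to 2.5 at day 14 and 1.89 to 2.07 at day 21, and in 12 of 12 fits that left out 1 library each (2.22 to 2.55 and 1.80 to 2.12). The number of the 5 coding genes called at day 14 and day 21, 1 and 1 as reported, was 3 and 3 with DESeq2 and with no filter on low counts (Postn, Fn1 and Tnc), and 2 and 2 without the 4 libraries that correlated least with the others (Postn and Tnc). With the replicate block it was 2 at day 14 (Postn and Fn1). Over 36 pairs of groups the correlation of replicate differences ran from -0.278 to 0.287 with a median of -0.00962, and 12 pairs had r over 0.1. The 4 libraries that correlated least with the others were all replicate 1, and whether replicate numbers mark a batch is not known. Without 1 library the count of coding genes called ran from 1 to 2 on both days. In C57BL/6 at day 14 the count went from 0 to 1 (Postn) with DESeq2, no filter, the length offset, limma voom, and without the 4 libraries. In C3H/HeJ at day 14, 1 as reported, it ran from 0 to 2 without 1 library, and at day 21 from 0 to 1, with 1 under DESeq2, no filter and without the 4 libraries. In KK/HlJ at day 14 it was 1 with DESeq2 and no filter, 2 without the 4 libraries, and 0 to 1 without 1 library. In KK/HlJ at day 21, 1 as reported, it was 2 with DESeq2, 3 with no filter, 2 without the 4 libraries, 0 with RLE scaling, the replicate block and limma voom, and 0 to 2 without 1 library. Between C3H/HeJ and C57BL/6 the count, 0 as reported, was 1 with no filter (Fn1) and 2 without the 4 libraries (Fn1 and Tnc), and for the response of KK/HlJ against C3H/HeJ it was 1 without the 4 libraries (Tnc). Over both days the count, 1 as reported, was 3 with DESeq2 and no filter, 2 with the replicate block and limma voom (Postn and Fn1) and without the 4 libraries (Postn and Tnc), and 1 to 3 without 1 library. The cause of these moves was not tested. Over all genes, 6 were called at day 14 and 7 at day 21, against 74 and 49 with DESeq2, 75 and 55 with no filter, 94 and 78 without the 4 libraries, 5 and 3 with limma voom, 8 and 4 with the length offset, and 3 to 234 and 2 to 60 without 1 library. For C3H/HeJ against C57BL/6, KK/HlJ against C57BL/6 and KK/HlJ against C3H/HeJ, 102, 43 and 64 genes were called, against 287, 152 and 198 with DESeq2, 226, 141 and 144 with no filter, 324, 74 and 101 with limma voom, and 414, 146 and 146 without the 4 libraries.

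The log2 values that changed sign were small or had a wide SE, and none was called before or after. With the length offset they were, for Tnxb, -0.27 at day 14 and -0.26 over both days in the mean over strains, -0.14 in KK/HlJ at day 14, 0.12, -0.78 and -0.10 at day 21 for C57BL/6, C3H/HeJ and KK/HlJ, 0.01 for day 21 against day 14, and -1.0 and -0.29 for the responses of C3H/HeJ and KK/HlJ against C57BL/6. Also with that offset, Postn between KK/HlJ and C3H/HeJ was 0.04, and the responses of C3H/HeJ against C57BL/6 were -0.04 for Fn1 and -0.22 for Tgfbi. With limma voom, Tnxb at day 21 was 0.01 and the Tgfbi response of KK/HlJ against C57BL/6 was 0.01, and with the replicate block Fn1 in C57BL/6 at day 21 was 0.00, just below zero. Without the 4 libraries, Tnxb was -0.10 at day 14, -0.11 over both days, -0.26 in C3H/HeJ at day 21, -0.05 between KK/HlJ and C3H/HeJ and -0.34 for the response of C3H/HeJ against C57BL/6. Tgfbi was -0.10 for day 21 against day 14, -0.01 in KK/HlJ at day 21, 0.01 between KK/HlJ and C57BL/6 and -0.15 for the response of C3H/HeJ against C57BL/6, Postn was 0.44 between KK/HlJ and C3H/HeJ, and Tnc was -0.25 between KK/HlJ and C57BL/6.

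Leaving out 1 library gave these ranges where a sign changed. For Tnxb they were -0.07 to 0.25 at day 14, -0.14 to 0.18 at day 21 and -0.10 to 0.22 over both days, -0.65 to 0.03 in C57BL/6 at day 21, -0.50 to 0.46 and -0.26 to 0.70 in C3H/HeJ at days 14 and 21, -0.20 to 0.03 for day 21 against day 14, -0.03 to 0.29 between KK/HlJ and C3H/HeJ, and -0.34 to 0.63 and -0.46 to 0.50 for the responses of C3H/HeJ against C57BL/6 and of KK/HlJ against C3H/HeJ. For Tgfbi they were -0.04 to 0.71 in C57BL/6 at day 21, -0.14 to 0.82 in KK/HlJ at day 14, -0.10 to 0.15 for day 21 against day 14, -0.05 to 0.26 between KK/HlJ and C3H/HeJ, and -0.15 to 0.35, -0.44 to 0.51 and -0.52 to 0.43 for the responses of C3H/HeJ against C57BL/6, KK/HlJ against C57BL/6 and KK/HlJ against C3H/HeJ. For Fn1 they were -0.39 to 0.45 in C57BL/6 at day 21, -0.27 to 0.05 for day 21 against day 14, -0.44 to 0.15 between KK/HlJ and C3H/HeJ and -0.86 to 0.93 for the response of KK/HlJ against C3H/HeJ. For Tnc they were -0.42 to 0.70 between KK/HlJ and C57BL/6, -1.01 to 0.48 for the response of C3H/HeJ against C57BL/6 and -0.03 to 3.29 for that of KK/HlJ against C57BL/6. For Postn they were -0.21 to 0.08 between KK/HlJ and C3H/HeJ and -0.74 to 0.15 for the response of KK/HlJ against C3H/HeJ.

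With 2 libraries per group, values within a strain rest on single libraries, and a lone library is assumed to vary like the other groups. Depth limits Tnc most, with 15 counts in a KK/HlJ sham library, and Tnxa outside C3H/HeJ, which cannot be placed below the limit of 3 counts per library.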
